A study of Arabidopsis thaliana with 4 samples.

Results

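The genes described here are 42 nuclear genes of Arabidopsis thaliana that encode the light-harvesting antenna and the nuclear subunits of both photosystems. They were taken by locus from the 33602 genes of the deposited tables, and all 42 were found. By role they fall into 15 LHCB genes (antenna of photosystem II), 6 LHCA genes (antenna of photosystem I), 9 photosystem II genes with PSBS among them, and 12 photosystem I genes. The rule lists loci by role and uses no measured value, but the set was chosen with earlier results of these data known.

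RNA was sequenced from whole seedlings of 2 genotypes, both harvested 12 days after sowing. The overexpressor carries a transgene for the small open reading frame sORF1511 and is represented by a single line, number 7, so that the transgene's effect cannot be told apart from that of the line. The promoter that drives the transgene is not given in the sources used here, and the level of sORF1511 itself was not analysed here. The other genotype is WT (Col-0). Each genotype had 2 libraries, described as biological replicates, each from 5 pooled seedlings. The libraries were stranded and enriched for polyadenylated RNA. The series title places the work in a search for phloem peptides that may act on flowering time.

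Antenna proteins bind chlorophyll and carotenoids and pass absorbed light energy to the photosystem cores. Their genes, like those of most small core subunits, lie in the nucleus, while the chlorophyll-binding core proteins are encoded in the chloroplast. In Arabidopsis the nuclear set is known for strong expression in green tissue, for light induction and for activation by GLK transcription factors. Since whole seedlings were used, a different share of green cells and a different RNA level per green cell cannot be told apart.

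Total reads were 18547136 and 25740234 in overexpressor replicates 1 and 2, and 13974460 and 24508631 in WT replicates 1 and 2. WT replicate 1 stood apart, with 31.7% of its reads on organelle genes, against 1.02% to 1.47% in the other libraries. Reads per gene differed more between the WT libraries (chi-square per degree of freedom 400) than between the overexpressor libraries (9.12). This chi-square counted organelle genes too and grows with read depth, so it is not separate from the organelle excess. Levels are given as RPKM, here reads per kilobase of effective gene length relative to library totals scaled by TMM (a correction for library composition), so that they can be compared between genes and between libraries. Summed levels of 8 shoot markers overlapped, at 922 and 1057 RPKM in the overexpressor and 961 and 991 RPKM in WT. Most of this sum came from the myrosinase genes TGG1, with 591 and 666 RPKM in the overexpressor and 656 and 688 RPKM in WT, and TGG2, with 210 and 267 RPKM in the overexpressor and 174 and 179 RPKM in WT. Of the 8, 2 were above 0, with a median log2 fold change of -0.087, and TGG2 was the highest at 0.44. DESeq2 called TGG2 higher, beside 4.4% of all genes, but edgeR and limma-voom did not. The summed levels of 10 root markers were 4.66 and 7.72 RPKM in the overexpressor, against 18.3 and 45.2 RPKM in WT. Of these 10 root markers 5 were tested and all 5 had a negative fold change, 0 at an adjusted p below 0.05. For 3 of the 5 both overexpressor libraries lay below both WT libraries, beside 28.4% of all genes. MYB36 and PRP3 overlapped, and PRP3 had 0.0511 and 1.18 RPKM in the overexpressor and 0.617 and 8.95 RPKM in WT. At an unadjusted p below 0.05, 3 were lower, beside 9.81% of all genes, and DESeq2 called 2 lower, beside 1.48%. CASP5 was listed at 0 in 3 libraries. The part of root tissue in the results below was not tested.

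The 42 genes took 13.4% and 12.9% of the nuclear reads in the overexpressor, and 11.9% and 13.1% in WT. Among all nuclear genes ranked by mean level, 32 of the 42 were in the first 50 and 37 in the first 75. The other 5 were PSAE2 and 4 minor antenna genes, LHCA5, LHCA6, LHCB4.3 and LHCB7.

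**Figure D1:**
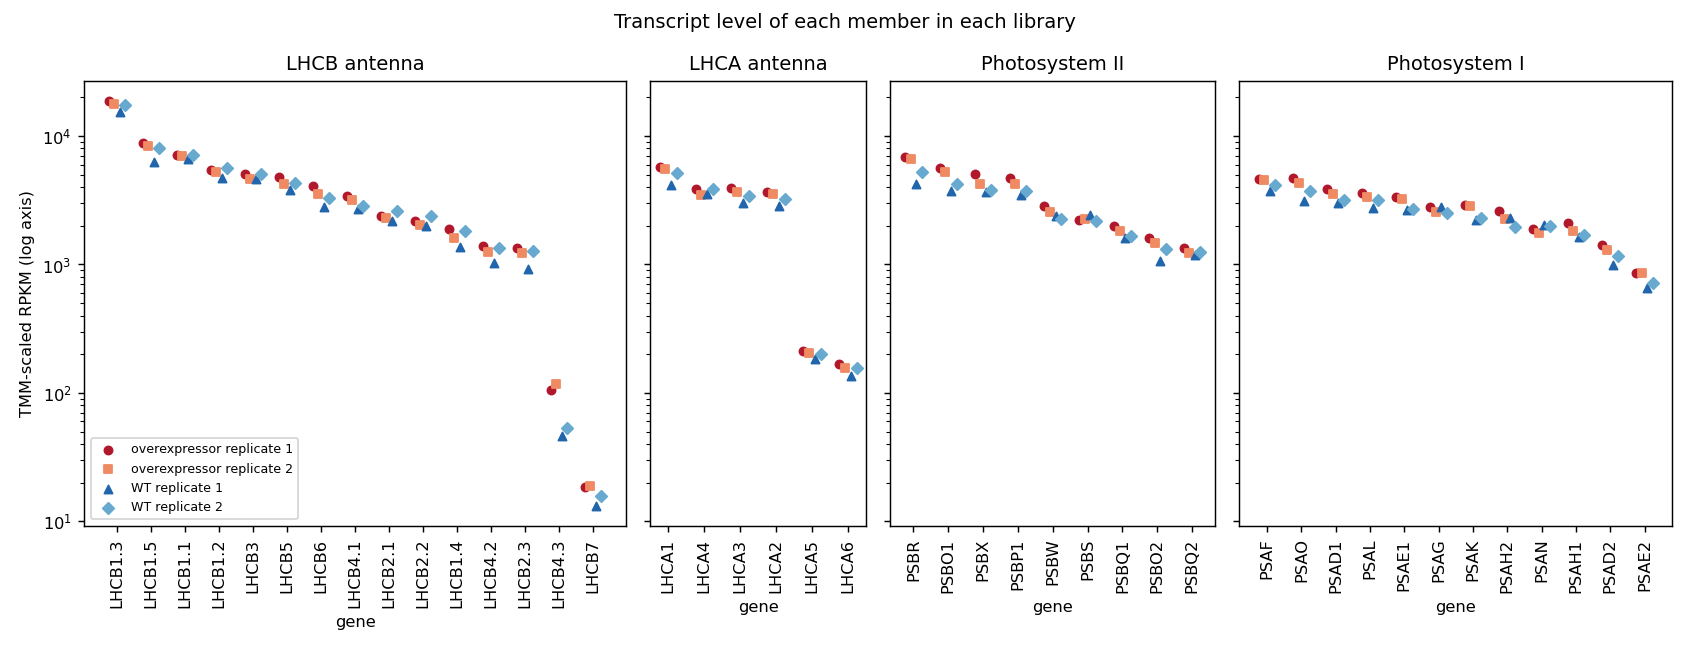
Level of each of the 42 genes (TMM-scaled RPKM, log axis) in each library, by class and ordered by mean level; each point is 1 library. LHCB1.3 stands at the top with 15476 to 18643 RPKM and LHCB7 at the bottom with 13.3 to 18.8 RPKM, and most points of a gene lie close together.

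By the median of their fold changes the photosystem genes were slightly higher in the overexpressor, and none passed the test. Their summed share of nuclear reads, given above, overlapped between the genotypes. The median log2 fold change over the 42 genes was 0.23, against -0.013 over all 19474 genes tested, and 37 of the 42 were above 0, beside 48.5% of all genes. All 42 passed the filter on low counts. At an adjusted p below 0.05 (edgeR's quasi-likelihood test, Benjamini-Hochberg adjustment) 0 were higher and 0 lower, beside 0.139% of all genes tested that were called higher and 0.0103% called lower. The lowest adjusted p was 0.0521, for LHCB4.3, and the next was 0.155, for PSAK. At an unadjusted p below 0.05, 11 of 42 (26.2%) were higher and 0 lower, beside 11.9% of all genes higher and 9.81% lower. DESeq2 called 8 members higher, beside 4.4% of all genes under that tool, while limma-voom called 0, beside 0%, and limma-trend called 0 with either pseudocount, beside 1.28% and 0.904%.

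The differences were small in fold. The median absolute log2 fold change was 0.23 over the 42 genes, with a median standard error of 0.12, beside 0.24 and 0.17 over all genes tested. A fitted difference within 1.25-fold in either direction was found for 33 of the 42 genes (78.6%), beside 62.6% of all genes tested. The 95% interval of the fold change excluded a 2-fold difference in both directions for 41 genes and a 1.5-fold difference for 27. For 27 genes (64.3%) both overexpressor libraries lay above both WT libraries, beside 28.7% of all genes, and for 1 gene, PSAN, both lay below, beside 28.4%. Together these 28 genes compare with 57.1% of all genes that did not overlap in either direction. The WT libraries differed among themselves: WT replicate 2 was higher than WT replicate 1 for 37 of the 42 genes, with a median log2 ratio of 0.16. Overexpressor replicate 2 was higher than overexpressor replicate 1 for 3 of 42, with a median of -0.11.

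Direction depended on the scaling for the genes near 0. With library totals as the only scaling 41 of 42 were above 0, with nuclear totals 31 of 42, and the median of all genes itself moved to 0.10 and -0.13 in these settings. Relative to that median the 42 genes stood 0.24 higher on the log2 scale with TMM, with library totals and with nuclear totals. A change of scaling moves all genes by nearly the same amount, so this distance could hardly change and is no check. The median of the 42 genes itself was 0.34 with library totals and 0.10 with nuclear totals. It was 0.16 without WT replicate 1 and 0.31 without WT replicate 2. The number of the 42 genes higher at an unadjusted p below 0.05 was 1 when overexpressor replicate 1 was left out, beside 6.52% of all genes, and 2 when overexpressor replicate 2 was left out, beside 5.06%. It was 8 when WT replicate 1 was left out, beside 11.4%, and 24 when WT replicate 2 was left out, beside 16.9%. It was 1 with library totals as the only scaling, beside 6.59%, and 7 with nuclear totals, beside 7.4%.

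**Figure D2:**
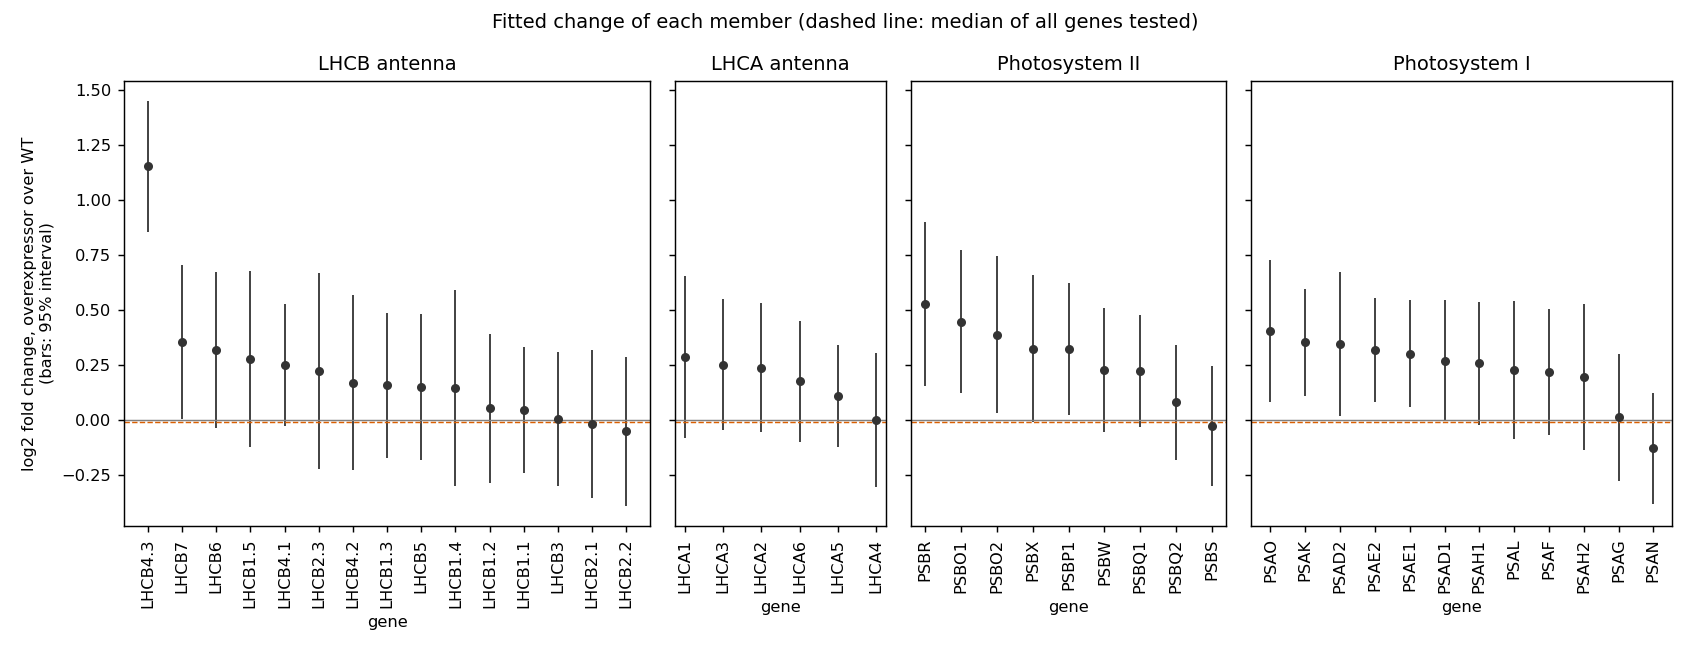
Fitted log2 fold change of overexpressor over WT for each gene with its 95% interval, by class; the dashed line is the median of all genes tested (-0.013). LHCB4.3 stands apart at 1.15, while the other 41 genes lie between -0.13 and 0.52.

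Among the LHCB genes the major trimeric antenna (LHCII) is encoded by LHCB1, LHCB2 and LHCB3. LHCB1.3 (AT1G29930) had the highest level of all 42, with 18643 and 17783 RPKM in overexpressor replicates 1 and 2 and 15476 and 17314 RPKM in WT replicates 1 and 2. Both overexpressor libraries lay above both WT libraries, but the gap between overexpressor replicate 2 and WT replicate 2 was smaller than the gap between the WT libraries. Its log2 fold change was 0.16 (95% interval -0.17 to 0.48). The next in level, LHCB1.5 (AT2G34420), had 8890 and 8368 RPKM in the overexpressor and 6282 and 8017 RPKM in WT, a log2 fold change of 0.27 (-0.13 to 0.68). WT replicate 1 was the low library for each of the 5 LHCB1 copies.

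The LHCB1 copies are close in sequence, which matters for how reads are divided among them. Over aligned coding bases of RefSeq (TAIR10.1), LHCB1.1 and LHCB1.3 were 96.1% identical and LHCB1.3 and LHCB1.4 were 87.4% identical. Of the 31-base windows of each transcript, 23.5% (LHCB1.4) to 32.1% (LHCB1.3) also occur in another gene. Coding bases 1 to 120 of the alignment to LHCB1.3 are printed for all 5 copies, with bases that differ from LHCB1.3 in capitals. The first 3 lie on chromosome 1 and the other 2 on chromosome 2.
LHCB1.1: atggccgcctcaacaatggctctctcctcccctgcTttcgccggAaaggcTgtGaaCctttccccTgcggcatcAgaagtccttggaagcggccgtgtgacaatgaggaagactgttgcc
LHCB1.2: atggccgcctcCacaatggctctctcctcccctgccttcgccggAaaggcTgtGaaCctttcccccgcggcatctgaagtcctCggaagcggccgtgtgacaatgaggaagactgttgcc
LHCB1.3: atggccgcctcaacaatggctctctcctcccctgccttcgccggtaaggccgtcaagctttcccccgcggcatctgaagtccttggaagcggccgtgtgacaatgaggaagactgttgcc
LHCB1.4: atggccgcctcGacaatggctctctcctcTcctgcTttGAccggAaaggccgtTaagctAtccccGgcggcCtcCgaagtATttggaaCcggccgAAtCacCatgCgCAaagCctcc
LHCB1.5: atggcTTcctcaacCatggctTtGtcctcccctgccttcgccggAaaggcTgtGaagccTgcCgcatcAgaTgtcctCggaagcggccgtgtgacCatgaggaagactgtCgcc
In this stretch LHCB1.2 differed from LHCB1.3 at 6 bases, LHCB1.1 at 7, LHCB1.5 at 15 and LHCB1.4 at 22, gaps not counted. Levels of single LHCB1 copies therefore carry the uncertainty of the authors' read assignment, for which the sources used here give no method.

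Within the LHCB1 family the share of each copy was similar in all 4 libraries. LHCB1.3 made up 44.3% and 44.4% of the family's TPM (the authors' length-corrected abundance) in the overexpressor and 44.8% and 43.4% in WT. LHCB1.4, the smallest, made up 4.53% and 4.04% in the overexpressor and 3.97% and 4.57% in WT, so the genotypes overlapped. LHCB1.5 made up 21.1% and 20.9% in the overexpressor, above 18.2% and 20.1% in WT, while LHCB1.1 made up 16.9% and 17.5%, below 19.3% and 17.7%. These 2 opposite gaps were 0.793 and 0.246 percentage points between the nearest libraries, less than the spread of the WT pair. LHCB1.2 made up 13% and 13.2% in the overexpressor, below 13.7% and 14.2% in WT, a gap of 0.544 points against 0.464 within WT.

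LHCB2 proteins also form LHCII trimers and are phosphorylated in state transitions, and LHCB2.1 and LHCB2.2 were among the genes nearest to 0. LHCB2.2 (AT2G05070) had the smallest log2 fold change of the LHCB class, -0.052 (-0.39 to 0.29), with 2186 and 2031 RPKM in the overexpressor and 1986 and 2396 RPKM in WT. The sign turned under 5 of the 16 alternatives, among them without WT replicate 2 (0.094). LHCB2.3 made up 22.7% and 21.9% of the family's TPM in the overexpressor and 18.3% and 20.3% in WT, with no overlap but a gap of 1.63 points between the nearest libraries against 1.98 within WT. LHCB2.1 and LHCB2.2 share 31.8% and 39.4% of their 31-base windows, and LHCB2.3 shares 0.557%. LHCB3, a further trimer subunit, gave a log2 fold change of 0.0040 (-0.30 to 0.31).

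The minor antenna proteins CP29 (LHCB4), CP26 (LHCB5) and CP24 (LHCB6) link the trimers to the core of photosystem II. LHCB4.3 (AT2G40100), a divergent LHCB4 relative also called LHCB8 and known for expression in high light, had 105 and 117 RPKM in the overexpressor, against 46.2 and 53.5 RPKM in WT. Each overexpressor library was well above both WT libraries. The fitted fold was 2.22 (95% interval 1.81 to 2.73), the largest of the 42 genes, and its adjusted p was 0.0521 (edgeR, quasi-likelihood), so it missed the threshold of 0.05. Adjusted p ranged over the 16 alternatives from 4.99e-12 with DESeq2 to 0.379 without overexpressor replicate 2, and was below 0.05 in 9 of them. Of all genes, the share called higher was 2.93% with library totals only, 0.836% with organelle genes left out, 1.27% with no filter, 0.357% with at least 1 CPM in 2 libraries, 0.6% with nuclear totals, 1.18% with WT replicate 1 left out and 6.07% with WT replicate 2 left out, and LHCB4.3 was called in each. The log2 fold change stayed between 1.03 and 1.27 throughout. As a share of the LHCB4 family's TPM, LHCB4.3 made up 2.13% and 2.56% in the overexpressor and 1.23% and 1.26% in WT.

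Its relatives LHCB4.1 and LHCB4.2 had smaller fitted differences. LHCB4.1 gave a log2 fold change of 0.25 (-0.027 to 0.53) and LHCB4.2 gave 0.17 (-0.23 to 0.57), so the interval of LHCB4.3 (0.85 to 1.45) lay above both. The 3 genes share none of their 31-base windows, and LHCB4.3 is 71.8% identical to LHCB4.1 over aligned coding bases. Upstream windows of the 3 genes are printed to show how they differ next to LHCB4.3. Each is the 250 bases before the RefSeq gene start (TAIR10.1), with matches to 4 motifs in capitals. The motifs were the G-box CACGTG, the abscisate-response core ACGTGG, the I-box GATAAG and the CCAAT-type motif CCAATC, on both strands, and the first 2 overlap in CACGTGG.
LHCB4.1 (chromosome 5, plus strand): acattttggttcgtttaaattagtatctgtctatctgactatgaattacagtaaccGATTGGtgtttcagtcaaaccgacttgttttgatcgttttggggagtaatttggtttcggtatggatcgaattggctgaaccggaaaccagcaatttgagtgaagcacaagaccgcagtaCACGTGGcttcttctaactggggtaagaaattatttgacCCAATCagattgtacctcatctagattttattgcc
LHCB4.2 (chromosome 3, plus strand): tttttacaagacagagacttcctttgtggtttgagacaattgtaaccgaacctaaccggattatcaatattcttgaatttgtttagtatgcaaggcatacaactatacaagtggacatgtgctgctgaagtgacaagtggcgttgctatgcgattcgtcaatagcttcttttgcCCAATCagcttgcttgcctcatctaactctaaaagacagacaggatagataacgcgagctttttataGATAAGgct
LHCB4.3 (chromosome 2, plus strand): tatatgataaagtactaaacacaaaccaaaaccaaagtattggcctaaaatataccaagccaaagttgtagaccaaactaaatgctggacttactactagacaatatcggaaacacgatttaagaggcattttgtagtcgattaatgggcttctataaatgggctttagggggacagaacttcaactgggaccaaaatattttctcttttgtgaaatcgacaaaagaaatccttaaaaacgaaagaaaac
The LHCB4.1 window holds a G-box 74 bases before the start, overlapped by the abscisate-response core, and CCAATC matches at 194 and 35 bases. The LHCB4.2 window holds CCAATC at 76 bases and an I-box at 9 bases. None of the 4 motifs occurs in the LHCB4.3 window, which says nothing about motifs elsewhere.

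LHCB7 (AT1G76570), a rarely expressed antenna relative, had the lowest level, with 18.4 and 18.8 RPKM in the overexpressor and 13.3 and 15.7 RPKM in WT. Its log2 fold change was 0.35 (0.0041 to 0.70), and edgeR's adjusted p was 0.227. LHCB5 gave 0.15 (-0.18 to 0.48) and LHCB6 gave 0.32 (-0.037 to 0.67). For the class of 15 the median was 0.16, and for 6 of the 15 both overexpressor libraries lay above both WT libraries, beside 28.7% of all genes. That median was 0.021 without WT replicate 1 and 0.30 without WT replicate 2, so its size rested on which WT library was used. In WT replicate 2 all 15 LHCB genes exceeded their WT replicate 1 levels, with a median log2 ratio of 0.25.

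The LHCA antenna of photosystem I is built from LHCA1 to LHCA4. LHCA1 (AT3G54890) was the most abundant, with 5766 and 5523 RPKM in the overexpressor and 4155 and 5143 RPKM in WT, and had the largest log2 fold change of the class, 0.28 (-0.084 to 0.65). LHCA4 (AT3G47470), the partner of LHCA1, had 3875 and 3492 RPKM in the overexpressor and 3536 and 3853 RPKM in WT. The genotypes overlapped completely for LHCA4, and its log2 fold change was -0.0014 (-0.31 to 0.30), with a sign that turned under 8 of the 16 alternatives. LHCA2 and LHCA3 gave 0.24 and 0.25. For 5 of the 6 LHCA genes, LHCA2 and LHCA3 among them, both overexpressor libraries lay above both WT libraries, beside 28.7% of all genes.

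LHCA5 and LHCA6, which link photosystem I to the NDH complex of cyclic electron flow, were much less abundant. LHCA5 (AT1G45474) had 212 and 204 RPKM in the overexpressor and 184 and 202 RPKM in WT. LHCA6 (AT1G19150) had 169 and 157 RPKM in the overexpressor and 135 and 155 RPKM in WT. For both, overexpressor replicate 2 and WT replicate 2 were nearly level. The class median was 0.21, and it was 0.12 without WT replicate 1.

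The photosystem II genes encode proteins around the oxygen-evolving cluster (PSBO, PSBP, PSBQ and PSBR), the small membrane subunits PSBW and PSBX, and PSBS, the sensor of lumen pH in photoprotection. PSBR (AT1G79040) was the most abundant, with 6908 and 6656 RPKM in the overexpressor, against 4202 and 5265 RPKM in WT. Both overexpressor libraries were well above WT. Its log2 fold change of 0.52 (0.15 to 0.90) was the largest after LHCB4.3, and edgeR's adjusted p was 0.159. PSBO1 (AT5G66570), the main manganese-stabilizing protein, had 5647 and 5200 RPKM in the overexpressor and 3727 and 4256 RPKM in WT, a log2 fold change of 0.45 (0.12 to 0.77) with an adjusted p of 0.16. PSBR and PSBO1 were past the threshold with DESeq2 and without WT replicate 2, and in no other alternative of the 16.

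The smallest value of the class was that of PSBS (AT1G44575), with 2217 and 2254 RPKM in the overexpressor and 2410 and 2170 RPKM in WT. The genotypes overlapped, and its log2 fold change was -0.030 (-0.30 to 0.24). It was 0.11 with library totals as the only scaling. PSBQ2 gave 0.079 and also overlapped, while its copy PSBQ1 gave 0.22 and did not. For 7 of the 9 genes both overexpressor libraries lay above both WT libraries, beside 28.7% of all genes, and the class median was 0.32, the highest of the 4 classes. Without overexpressor replicate 1 that median was 0.19, and with the other libraries left out in turn it was 0.27 to 0.40.

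The upstream window of PSBR is printed since PSBR had the largest fitted difference of its class. On chromosome 1, plus strand, it carries the abscisate-response core ACGTGG at 125 and 98 bases before the RefSeq gene start (TAIR10.1), in capitals.
PSBR: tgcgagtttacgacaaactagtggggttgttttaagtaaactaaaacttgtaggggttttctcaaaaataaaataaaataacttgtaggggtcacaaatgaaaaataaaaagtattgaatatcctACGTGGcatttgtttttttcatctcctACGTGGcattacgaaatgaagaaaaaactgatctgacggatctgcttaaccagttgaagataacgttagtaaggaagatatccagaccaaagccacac

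The photosystem I genes encode the stromal subunits PSAD and PSAE, where ferredoxin docks, the plastocyanin-side subunits PSAF and PSAN, and the membrane subunits PSAG, PSAH, PSAK, PSAL and PSAO. PSAF (AT1G31330) was the most abundant, with 4651 and 4518 RPKM in the overexpressor and 3757 and 4152 RPKM in WT. PSAO (AT1G08380), which lies where LHCII binds in state transitions, had 4671 and 4343 RPKM in the overexpressor and 3146 and 3700 RPKM in WT. The genotypes did not overlap for either gene. PSAO had the largest log2 fold change of the class, 0.40 (0.078 to 0.73), where edgeR's adjusted p was 0.179, and PSAF gave 0.22 (-0.068 to 0.50).

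PSAN (AT5G64040) had 1901 and 1747 RPKM in the overexpressor and 2012 and 1996 RPKM in WT, the only one of the 42 genes with both overexpressor libraries below both WT libraries. Its log2 fold change was -0.13 (-0.38 to 0.12), and edgeR's adjusted p was 0.474. The fold change remained negative under all 16 alternatives, but it was only -0.0075 with library totals as the only scaling. With that scaling 0 of the 42 genes had both overexpressor libraries below both WT libraries, and with nuclear totals 7 had. The separation of the genotypes for PSAN therefore depended on the scaling. PSAG, which helps to anchor the LHCA belt, gave 0.010 (-0.28 to 0.30) and overlapped. PSAK gave 0.35 (0.11 to 0.60), with the narrowest range of the class over left-out libraries after PSAE1, 0.34 to 0.38. For 9 of the 12 genes both overexpressor libraries lay above both WT libraries, beside 28.7% of all genes, and the class median was 0.26.

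Within the photosystem transcript pool the LHCB share was lower and the photosystem II share higher in both overexpressor libraries. These shares are of the 42 genes' summed TPM within a library and do not depend on scaling between libraries. They add up to 100% in each library, so the differences of the classes are not independent of each other. LHCB genes made up 44.1% and 44.3% in the overexpressor, against 45.4% and 47.1% in WT, a difference of means of -2.05 percentage points. Photosystem II genes made up 21.4% and 21.0% in the overexpressor, against 19.7% and 19.2% in WT, a difference of 1.75 percentage points. For both classes the genotypes did not overlap. The LHCB gap between the nearest libraries (1.13 points) was smaller than the spread of the WT pair (1.62 points), whereas for photosystem II the gap (1.3 points) was larger than the spread of either pair (0.374 in the overexpressor, 0.519 in WT).

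The shares of the photosystem I antenna and core overlapped between genotypes. LHCA genes made up 11.6% and 11.7% in the overexpressor and 11.6% and 11.9% in WT, and photosystem I genes 22.9% and 22.9% in the overexpressor and 23.3% and 21.8% in WT. The ratio of LHCB to photosystem II restates the shares of these classes. It was 2.06 and 2.11 in the overexpressor, against 2.31 and 2.45 in WT. With 2 libraries in each genotype no exact permutation test of such a value can reach 0.05, so none is given. The LHCB and photosystem II differences kept their signs when estimated counts replaced TPM, when the LHCB1 copies were left out and when any library was left out, with -2.86 to -1.24 and 1.49 to 2.01 points in the last case.

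**Figure D3:**
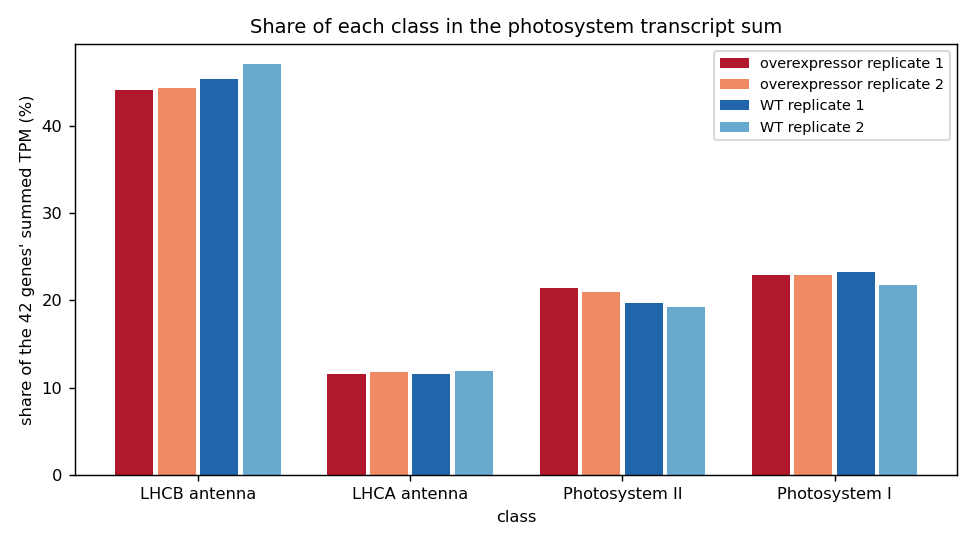
Share of each class in the summed TPM of the 42 genes; each bar is 1 library. The overexpressor bars are below the WT bars for LHCB (44.1% and 44.3% against 45.4% and 47.1%) and above them for photosystem II (21.4% and 21.0% against 19.7% and 19.2%).

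Several subunits are encoded by a pair of close copies, and their balance was compared within each library. PSBQ1 made up 59.6% and 59.9% of the PSBQ pair in the overexpressor and 57.5% and 57.2% in WT, a gap of 2.03 points between the nearest libraries against 0.398 within WT. PSBO1 made up 77.9% and 77.8% of the PSBO pair in the overexpressor and 77.9% and 76.5% in WT. PSAE1 made up 79.4% and 79.3% in the overexpressor and 80.2% and 78.9% in WT, and PSAD1 made up 73.1% and 73.3% against 75.5% and 73.0%. PSAH2 made up 55.3% and 55.2% in the overexpressor and 58.7% and 53.9% in WT. Except for PSBQ, the overexpressor values of these pairs lay within the span of the WT libraries. Copies of these pairs share at most 0.54% of their 31-base windows.

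**Figure D4:**
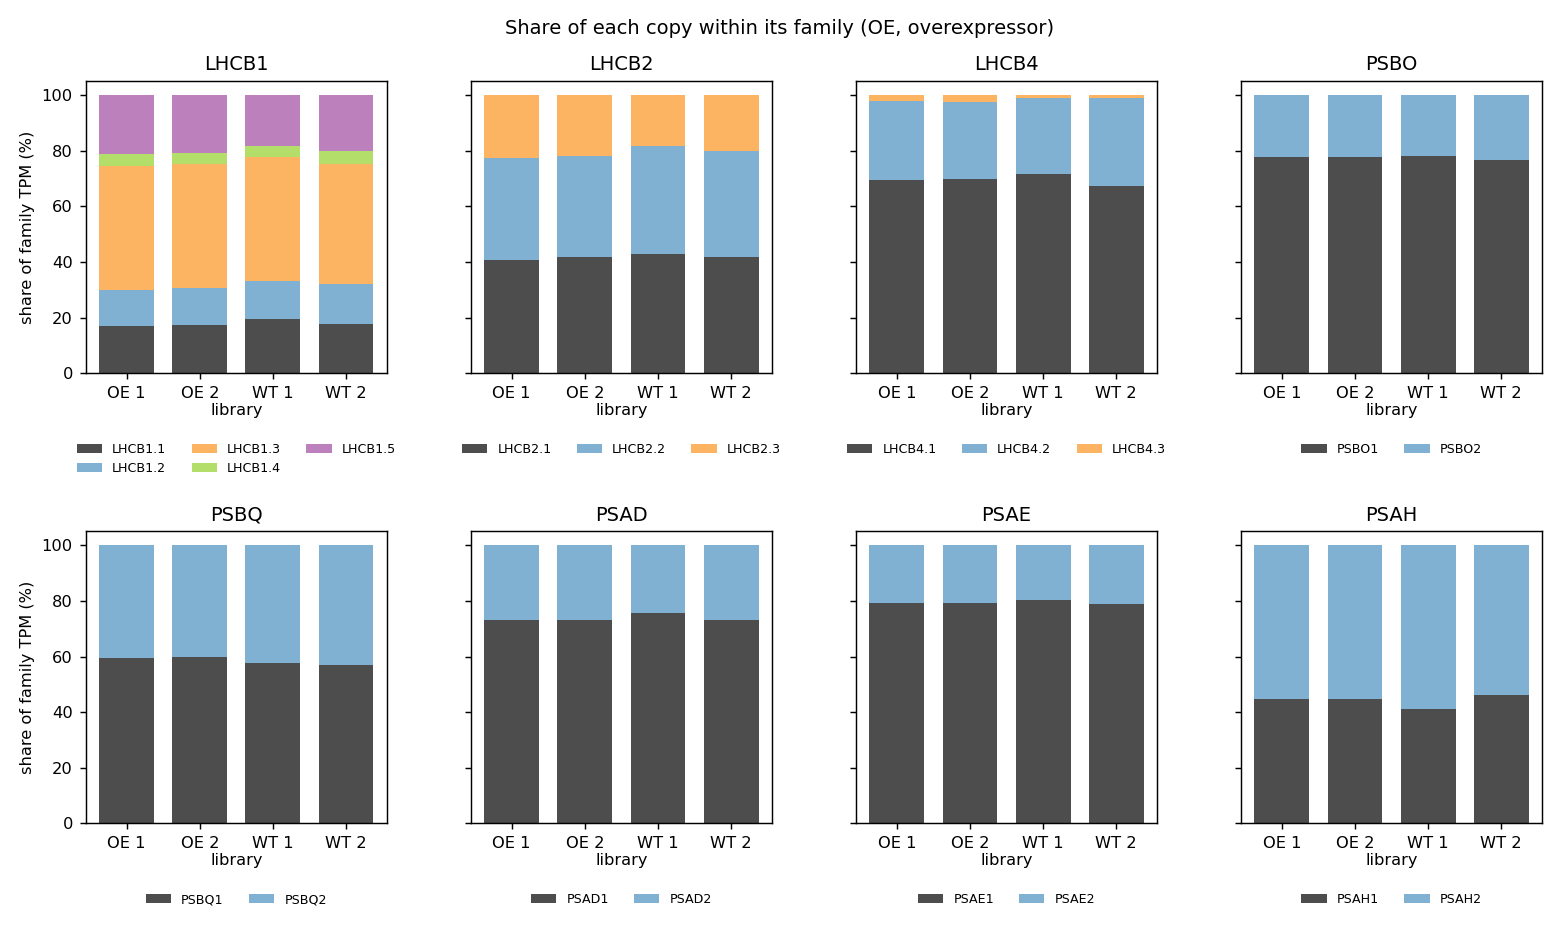
Share of each copy in its family's TPM (stacked bars, 1 per library, OE for overexpressor). Most families have nearly the same division in all 4 libraries; the thin LHCB4.3 segment is thicker in the overexpressor (2.13% and 2.56%) than in WT (1.23% and 1.26%).

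Genes around the photosystems were compared in the same fit, and 0 of any list below passed the adjusted threshold in edgeR's or limma-voom's test. Counts for these lists stand beside 11.9% of all genes higher and 9.81% lower at an unadjusted p below 0.05, and beside 4.4% called higher and 1.48% called lower by DESeq2. Among 13 electron carrier and ATP synthase genes the median log2 fold change was 0.23, with 5 higher at an unadjusted p below 0.05 and 4 called by DESeq2 (PETC, PETM, PETE2 and PGR5). PETE2, the major plastocyanin, had 6450 and 6089 RPKM in the overexpressor and 4651 and 4725 RPKM in WT, and PETE1 gave 0.29. PGR5, a protein of cyclic electron flow, gave the largest value of that list, 0.50, and ATPC1, the gamma subunit of ATP synthase, the smallest, -0.16. Among 9 other photosystem II subunits and assembly factors the median was 0.16, with 3 higher at an unadjusted p below 0.05 and 3 called by DESeq2 (PSB27, PSB28 and PSBTN), from PPL1 at -0.18 to PSBTN at 0.45. Among 9 genes of antenna targeting and phosphorylation the median was 0.22, with 4 higher at an unadjusted p below 0.05 and 0 called by DESeq2, from CPFTSY, a receptor of antenna targeting, at -0.15 to the LHCII kinase STN7 at 0.37.

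The median of the chlorophyll synthesis genes was close to that of all genes. Of 20 genes 19 were tested, with a median of -0.0058, 0 higher and 1 lower (CHLI2) at an unadjusted p below 0.05, which DESeq2 also called. HEMA1, the first dedicated enzyme, gave 0.16, GUN4 gave 0.10 and CHLH, a magnesium chelatase subunit, gave 0.17, the largest. PORB and PORC, the protochlorophyllide reductases of green tissue, gave 0.017 and 0.035, and CAO, which makes chlorophyll b, gave -0.23. CHLI2 gave the smallest value, -0.45, with 37.1 and 41.2 RPKM in the overexpressor and 56.2 and 51.0 RPKM in WT. PORA, which acts in etiolated seedlings, had 5 and 1 reads in the overexpressor and 2 and 5 reads in WT and was not tested.

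Genes of chlorophyll breakdown had the largest positive median of the lists, 0.67 over 7 genes, with 4 higher at an unadjusted p below 0.05, and DESeq2 called the same 4, NYE1, NYC1, PPH and PAO, beside the 11.9% and 4.4% of all genes. NYE1, the magnesium dechelatase, had 12.8 and 12.5 RPKM in the overexpressor and 6.04 and 8.29 RPKM in WT, a log2 fold change of 0.80. PAO, pheophorbide a oxygenase, had 40.4 and 51.6 RPKM in the overexpressor and 19.9 and 27.5 RPKM in WT, the largest at 0.95. RCCR gave the smallest, 0.031. Adjusted p ranged from 0.0736 to 0.894 over the 7 genes in edgeR's test.

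Antenna relatives and regulators were mixed. Among 8 light-harvesting-like relatives the median was 0.18, with 1 higher at an unadjusted p below 0.05 and 0 called by DESeq2. ELIP1, an early light-induced protein, had 63.5 and 120 RPKM in the overexpressor and 62.9 and 55.6 RPKM in WT, the largest of the list at 0.64, and overexpressor replicate 1 was level with WT. ELIP2 gave 0.32 and LIL3:2 the smallest, -0.20. Of 16 regulators 15 were tested, with a median of 0.084, 2 higher and 2 lower at an unadjusted p below 0.05, and ABI4 had 0 reads in all 4 libraries. GLK1 had 159 and 152 RPKM in the overexpressor and 118 and 140 RPKM in WT, a log2 fold change of 0.27 (adjusted p 0.256). GLK2 gave 0.16 and overlapped, HY5 gave 0.30 and overlapped, PIF3 gave the largest, 0.82, and BBX21 the smallest, -0.75, the only one of the list that DESeq2 called.

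**Figure D5:**
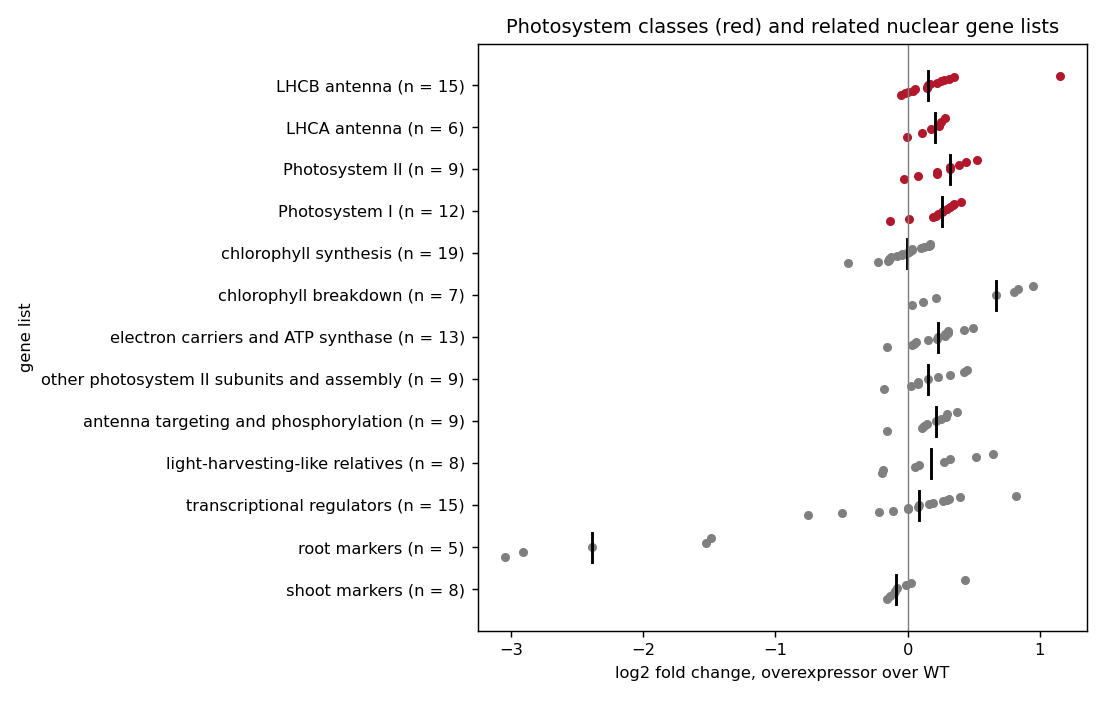
Fitted log2 fold change of overexpressor over WT for each tested gene (points) of the 4 photosystem classes (red) and of 9 further lists of nuclear genes (grey), with the median of each list as a bar. The photosystem classes have medians of 0.16 to 0.32, chlorophyll synthesis is centred on 0, and the root markers lie between -3.04 and -1.49.

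The 7 chloroplast-encoded photosystem subunits summed to 155 and 118 RPKM in the overexpressor and 17885 and 432 RPKM in WT. All 7 were lower in the overexpressor at an unadjusted p below 0.05, beside 9.81% of all genes, and 0 at an adjusted p below 0.05 in edgeR's test (5 with DESeq2, beside 1.48%), with log2 fold changes from psbA at -6.53 to psbB at -4.92. Most of the WT sum came from WT replicate 1, the library rich in organelle reads. In RNA enriched for poly(A), the level of such transcripts was not compared further with the nuclear genes.

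The upstream windows of the 42 genes were searched for the same 4 motifs, as a description. A G-box occurred in 9 of 42 windows (21.4%), beside 6.49% of all 27443 RefSeq windows of that length, and the abscisate-response core in 12 (28.6%), beside 8.23%. An I-box occurred in 9 (21.4%), beside 12.3% of all windows. CCAATC occurred in 11 (26.2%), beside 10.2%, and was found in 7 of 15 LHCB windows and 3 of 6 LHCA windows, but in 1 of 9 photosystem II windows and 0 of 12 photosystem I windows.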

How the data were processed

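Per the file headers, the authors deposited 1 gene table for each of the 4 libraries, with length, effective length, TPM and estimated counts for 33602 genes. The deposited estimated counts (expected counts) are not normalized. The deposited TPM values are scaled to a fixed sum per library, organelle genes included. Quantifier, build and annotation: not given in the sources used here; no step beyond the name DESeq2 is recorded in the submitters' processing notes.

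Estimated counts were rounded and tested with edgeR 4.0.16 in R 4.3.3 (filterByExpr with a minimum count of 10 and total of 15, TMM, glmQLFit, glmQLFTest), and p-values were adjusted by Benjamini-Hochberg over 19474 genes. Intervals (95%) use edgeR's standard error and degrees of freedom. RPKM was computed from counts, effective length and TMM-scaled totals, and class and copy shares from TPM. With 2 libraries per genotype, p-values rest on few degrees of freedom. Library totals of 13974460 to 25740234 make 3 reads equal to 0.108 to 0.268 CPM. The procedure was run on simulated counts that held no outlying library, so that check does not cover a library like WT replicate 1.

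Alternatives were DESeq2 1.42.0, limma 3.58.1 (voom, and trend on log2(TPM + 1) and log2(TPM + 0.1)), RLE factors, library totals only, organelle genes left out, no filter, at least 1 CPM in 2 libraries, an offset of effective length, the replicate number as a block, each library left out, and, added after seeing the data, scaling to nuclear totals only. Counts at an unadjusted p, above 0 or without overlap were also recomputed under alternatives added after seeing the data.

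The members and lists were chosen with earlier results of these data known. Named genes are the 2 most abundant members of each class by TPM, the largest and smallest changes of each class and list, copies as shares, the minor relatives and PSBS, and a set of list genes; LHCA2, LHCA3, LHCB3, LHCB5, LHCB6, PSAG and PSAK were added after their values were seen. Sequences come from RefSeq TAIR10.1 by locus; the table length of 4 of the 42 genes was within 1 base of a RefSeq transcript, so the annotation behind the tables differs from that one, and no coordinates are given.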

Additional observations from a re-analysis of the deposited data

How the results depend on the processing

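No member was lower past the threshold under any of the 16 alternatives. The number higher was 8 with DESeq2 (LHCB4.3, PSBO1, PSBP1, PSBR, PSAE1, PSAE2, PSAK and PSAO), 1 (LHCB4.3) each with library totals only, organelle genes left out, no filter, at least 1 CPM in 2 libraries and nuclear totals, and 0 to 5 with a library left out. Over all genes the calls numbered 29 in the test as reported, 1219 with DESeq2, 0 with limma-voom, 274 and 194 with limma-trend at pseudocounts of 1 and 0.1, 809 with library totals only, 184 with organelle genes left out, 153 with nuclear totals, 362 with no filter, 75 with at least 1 CPM in 2 libraries and 0 to 2203 with a library left out. Median log2 fold changes of LHCB, LHCA, photosystem II and photosystem I were 0.26, 0.31, 0.43 and 0.38 with library totals only and 0.031, 0.081, 0.20 and 0.14 with nuclear totals. With limma-trend and either pseudocount the LHCB, photosystem II and photosystem I medians were 0.22, 0.38 and 0.32. With a library left out they ranged from 0.021 to 0.30 (LHCB), 0.12 to 0.31 (LHCA), 0.19 to 0.40 (photosystem II) and 0.21 to 0.33 (photosystem I). The LHCA share differed by -0.387 percentage points without the LHCB1 copies, against -0.0825 with them. Of 672 member values under the alternatives, 617 kept sign and side of the threshold, 20 passed it and 35 turned sign. Signs turned with library totals only for LHCB2.1 at 0.081, LHCB2.2 at 0.048, LHCA4 at 0.11 and PSBS at 0.11. With nuclear totals they turned for LHCB1.1 at -0.081, LHCB1.2 at -0.072, LHCB3 at -0.12, LHCA5 at -0.019, PSBQ2 at -0.047 and PSAG at -0.12. With limma-trend they turned on log2(TPM + 1) for LHCB2.1 at 0.053, LHCB2.2 at 0.019, LHCA4 at 0.063 and PSBS at 0.036 and on log2(TPM + 0.1) for LHCB2.1 at 0.053, LHCB2.2 at 0.019, LHCA4 at 0.064 and PSBS at 0.036. LHCA4 stood at 0.0069 with DESeq2, 0.0045 with organelle genes left out and 0.0095 with no filter, and LHCB3 at -0.0011 with at least 1 CPM in 2 libraries. With a library left out, values of the genes whose sign turned ranged from -0.051 to 0.076 for LHCB3, from -0.060 to 0.097 for PSAG, from -0.14 to 0.13 for LHCB2.1, from -0.17 to 0.094 for LHCB2.2, from -0.066 to 0.076 for LHCA4, from -0.060 to 0.19 for LHCB1.2, from -0.036 to 0.37 for LHCB1.4 and from -0.10 to 0.058 for PSBS. None of these passed the threshold. The causes were not tested.

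The replicate number as a block, which the labels do not tie to a shared day or batch, gave 1 member past the threshold, LHCB4.3. Over all genes it gave 372 calls in both directions together, and 329 of 19474 genes (1.69%) were called higher. Deviations of same-numbered libraries correlated at 0.058 across genes, which with 2 numbers cannot show whether the samples were paired. With a library left out, the lone library of its genotype is assumed to vary like the other genotype. Over left-out libraries, the genotypes did not overlap, with the overexpressor above, for 27 to 37 members, beside 36.5% to 42.4% of all genes, and below for 1 to 4, beside 37.5% to 42.8%. With library totals only the numbers were 23 above and 0 below, beside 25.5% and 13.5%, and with nuclear totals 21 above and 7 below, beside 18% and 42.4%.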
